A study of Homo sapiens with 52 samples.

Results

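Bromosporin is a small molecule that binds the acetyl-lysine pocket of many bromodomains at once, and the data here are the transcriptomes of rhabdomyosarcoma cells given it for 6 h at 1 µM or 10 µM. The comparison covers 6 libraries: 1 library at each bromosporin dose and 4 vehicle libraries, of which 2 had 0.2% DMSO and 2 had 0.1% DMSO. All genes with at least 1 TPM (a read count scaled for gene length and library size) in at least 2 of these 6 libraries were kept, which left 13975 of the 27043 genes listed. The sample titles name the cells RH41 and the cell line label names them RH4. RH4 is a line of fusion-positive rhabdomyosarcoma (FP-RMS), a muscle-like childhood sarcoma driven by the fusion protein PAX3-FOXO1, so all 6 libraries carry that fusion and describe 1 cell line. The libraries belong to a screen of 44 samples in which 20 compounds, most of them against acetylation or methylation enzymes and readers, were each given at a high and a low dose for 6 h.

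Bromodomains are the protein modules that read acetylated lysines on histones. Those of the BET family tie acetylated enhancers and promoters to the elongation kinase P-TEFb, a complex of CDK9 and a cyclin T, and so help RNA polymerase II leave the promoter. P-TEFb is kept inactive by HEXIM1 in a complex with a small nuclear RNA, LARP7 and MEPCE. In FP-RMS a small set of core regulatory transcription factors (CR TFs) binds the same acetylated enhancers, and the study asked which chromatin regulators these factors depend on. The study names MYOD1, MYOG, SOX8, MYCN and PAX3-FOXO1. The CR TF list used here was MYOD1, MYOG, SOX8, MYCN, FOXF1 and PAX3. It has PAX3 in place of the fusion and adds FOXF1, which the study's main text does not name.

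The deposited values were whole reads divided by gene length and scaled to the same total in every library. The bromosporin libraries held 20839316 reads at 10 µM and 10856562 at 1 µM, and the DMSO libraries 16772069 to 22400976. The flow cell of each library was read from a code at the end of its deposited name and was not taken from a sample label. By that code both bromosporin libraries came from 1 flow cell, with 26 libraries of 13 other compounds and 0 DMSO libraries. The DMSO libraries came from other flow cells. Flow cell and treatment therefore cannot be told apart in a comparison with DMSO alone. The counts of called genes are also given against 7 methylation-axis compounds of the same flow cell, and the comparisons between doses and with other bromodomain compounds use no DMSO library. Of 12 FP-RMS markers, 11 had at least 1 TPM in all 6 libraries. Of 20 markers of other cell types, 2 did, and 6, among them PTPRC, HBB, CDH5, KRT5 and THY1, were under 0.1 TPM in all 6. The summed level of the latter list was 11.8 to 13.4 TPM in DMSO, 8.6 at 1 µM and 11 at 10 µM.

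Bromosporin lowered more genes than it raised, and the response grew with dose. A gene is called here when its adjusted p is below 0.05 and its log2 fold change on log2(TPM + 1) is at least 1 in size; rose and fell are used of values with an adjusted p below 0.05. At 1 µM, 503 genes were called lower and 182 higher than DMSO (3.6% and 1.3% of those tested). At 10 µM, 2884 were called lower and 1221 higher (20.6% and 8.74%). With the replicates of each DMSO concentration averaged, the counts at 1 µM were 388 and 117. With both doses in 1 group, 1504 were lower and 648 higher (10.8% and 4.64%). The test was limma's moderated test with Benjamini-Hochberg adjustment, and the lone library of a dose was assumed to vary like the dose pairs of the other compounds. Nothing in the labels says that the DMSO samples were separate cultures. The interaction of DMSO concentration and replicate had 1.018 times the variance of counting noise, and the replicate numbers follow the flow cell. Whether replicates came from the same culture was not tested, and the fit took the 4 DMSO libraries as separate samples. The p-values therefore measure only a spread estimated from the dose pairs of the screen's compounds and from the DMSO samples. The cells were measured in bulk, so fewer cells of a type and less RNA per cell cannot be told apart.

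The median gene also moved. Its log2 fold change was -0.27 at 10 µM and -0.04 at 1 µM, and after scaling each library by the median ratio over 7156 well-expressed genes it was -0.06 and -0.04. With that scaling the called genes at 10 µM split into 2201 lower and 1739 higher, those of both doses into 1212 and 818, and those of 1 µM into 504 and 175. Against the 7 methylation-axis compounds of the flow cell, 1445 genes were lower and 674 higher with both doses, 2888 and 1220 at 10 µM and 501 and 221 at 1 µM. Of the 1504 genes called lower, 1136 (75.5%) lay at 10 µM below all 26 other libraries of the flow cell, against 26.2% of all tested genes, and 252 did so at 1 µM. Of the 648 called higher, 478 (73.8%) lay at 10 µM above all 26, against 12.3% of all tested genes. Those libraries entered the calls only through the shared estimate of spread. The same bromosporin values chose the calls, however, which by itself raises these shares above those of all tested genes.

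**Figure D1:**
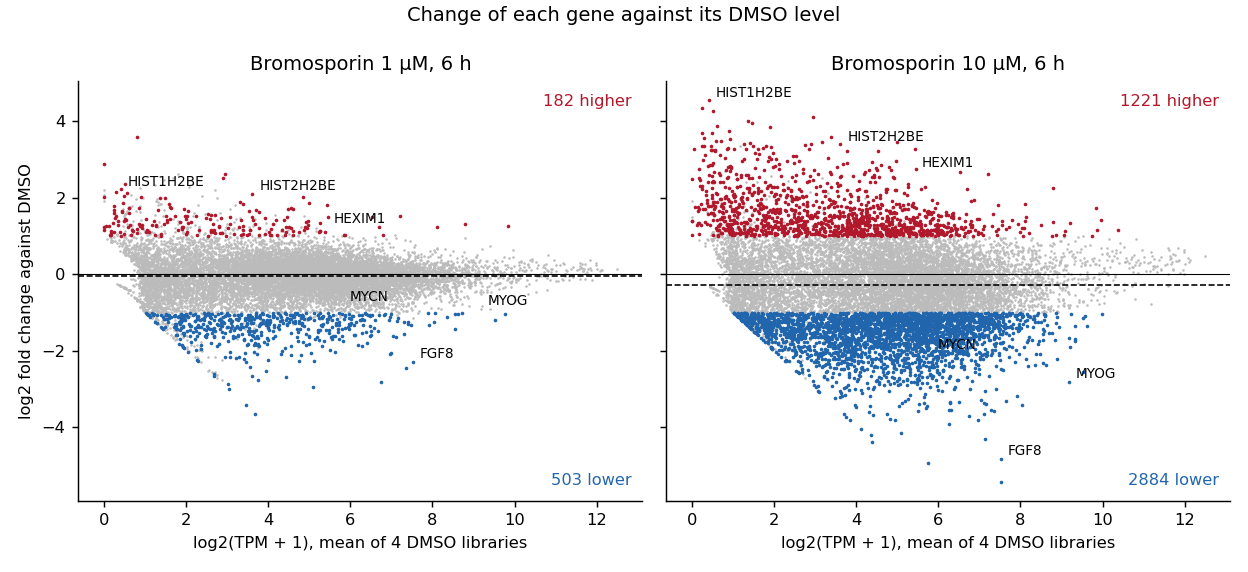
Log2 fold change of each of 13975 genes against DMSO (vertical axis) by its mean DMSO level on log2(TPM + 1) (horizontal axis), at 1 µM on the left and 10 µM on the right, with called genes in red (higher) and blue (lower) and the median of all genes as a dashed line. Called genes number 503 lower and 182 higher on the left, and 2884 lower and 1221 higher on the right.

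HEXIM1, the P-TEFb inhibitor whose messenger RNA is a common marker of BET inhibition, had the largest rise among the tested genes of the BET and P-TEFb list. Its level was 43.0 and 43.5 TPM at 0.2% DMSO, 40.5 and 41.1 at 0.1%, 150 at 1 µM and 414 at 10 µM. The bromosporin libraries lay above every DMSO library and above all 26 other libraries of the flow cell, which ran from 24.2 to 133 TPM. HEXIM1 (hg19 chr17:43224684-43229468, plus strand, protein-coding, a single exon in the annotation) rose by 2.54 ± 0.35 on the log2 scale with both doses (SE, adjusted p = 3.91e-06) and was called at each dose and between the doses. Its neighbour HEXIM2, which also binds P-TEFb and starts 8.07 kb downstream on the same strand, moved the other way. It had 4.8 to 5.99 TPM in DMSO, 3.90 at 1 µM and 1.34 at 10 µM, and fell by 1.45 ± 0.25 at 10 µM (adjusted p = 1.59e-05).

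The genes of the complex that holds P-TEFb did not move together. LARP7, which binds and stabilises the RNA of that complex, had 57.0, 59.4, 54.4 and 62.2 TPM in DMSO, 31.8 at 1 µM and 13.9 at 10 µM, and fell by 1.42 ± 0.19 (adjusted p = 2.34e-06). MEPCE, which caps the same RNA, had 118 to 131 TPM in DMSO, 168 at 1 µM and 258 at 10 µM, and rose by 0.74 ± 0.15 (adjusted p = 0.00025). Of the super elongation complex, ELL2 rose from 11.2 to 13.2 TPM in DMSO to 19.4 and 44.9 at the low and the high dose and was called. AFF1 (0.84 ± 0.16) and AFF4 (0.67 ± 0.18) rose by less than the fold limit. SERPINI1, a neuronal protease inhibitor, went from 163 to 171 TPM in DMSO to 221 and 285 and rose by 0.58 ± 0.11 (adjusted p = 0.000133).

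Neither the kinase gene nor a cyclin gene of the list was called with both doses. CDK9 had 70.0 to 72.7 TPM in DMSO and 82.3 and 88.8 at 1 µM and 10 µM, a difference of 0.26 ± 0.12 that did not pass (adjusted p = 0.0839). It passed against the methylation-axis compounds (0.42, adjusted p = 0.00173) and after median-ratio scaling (0.37, adjusted p = 0.0131), under the fold limit in both. CCNT1, its cyclin, passed at 0.50 ± 0.21 (adjusted p = 0.0471) but not against the methylation-axis compounds (adjusted p = 0.301), and CCNT2 (0.13 ± 0.18) and CCNK (0.15 ± 0.13) did not. BRD3 was at 105 to 109 TPM in DMSO, 113 at 1 µM and 130 at 10 µM and did not pass at either dose. BRDT and BRD2 were not tested, and BRD2, which most cells use, is listed at 0 to 0.102 TPM in the 6 libraries and at no more than 0.34 in the other libraries of the flow cell, so its level cannot be read from these files. In all, 15 of the 17 genes of this list were tested, and 2 were called lower (LARP7 and ZMYND8) and 2 higher (HEXIM1 and ELL2). Of all tested genes, 10.8% were called lower and 4.64% higher.

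ZMYND8, itself a bromodomain protein that reads acetylated histones, had the largest fall of the list. It had 27.9, 26.5, 27.7 and 27.0 TPM in DMSO, 10.3 at 1 µM and 1.05 at 10 µM. Both bromosporin values were below every DMSO library, and the value at 10 µM was also below all 26 other libraries of the flow cell (6.97 to 36.5 TPM). The log2 fold change was -2.55 ± 0.37 with both doses (adjusted p = 6.32e-06), -1.32 ± 0.30 at 1 µM and -3.79 ± 0.30 at 10 µM. Among 37 tested genes of bromodomain proteins, 4 were called lower with both doses, namely CREBBP, PBRM1, SMARCA4 and ZMYND8, and 2 higher, TRIM24 and TRIM66, which is near the shares of all tested genes (10.8% and 4.64%). SMARCA4, an ATPase of the SWI/SNF remodelling complex, went from 134 to 142 TPM in DMSO to 78.2 and 39.8. TRIM24, a co-regulator of nuclear receptors, went from 39.6 to 42.4 TPM to 68.4 and 143. At 10 µM the list had 11 genes called lower and 3 higher, where 20.6% and 8.74% of all tested genes were. Its median log2 fold change there was -0.46, and -0.23 after median-ratio scaling, against -0.27 and -0.06 for all tested genes.

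Of the 6 CR TFs, MYOG, MYCN and MYOD1 were called lower with both doses, where 10.8% of all tested genes were called lower. The fall was carried by the high dose. After median-ratio scaling 2 of the 6 were called lower, with MYOD1 under the fold limit (-0.968). Against the 7 methylation-axis compounds of the flow cell 2 were called lower. MYOG, the myogenic factor of late differentiation (chr1:203052257-203055166, minus strand), had 579 and 572 TPM at 0.2% DMSO, 587 and 575 at 0.1%, 307 at 1 µM and 81.7 at 10 µM. Its log2 fold change was -1.86 ± 0.38 with both doses (adjusted p = 0.000239), -2.81 ± 0.40 at 10 µM (adjusted p = 1.64e-06) and -0.91 ± 0.40 at 1 µM, which did not pass (adjusted p = 0.128). MYCN, the MYC family oncogene, had 53.3 to 57.5 TPM in DMSO, 31.2 at 1 µM and 12.5 at 10 µM, the latter below all 26 other libraries of the flow cell. Its log2 fold change was -1.43 ± 0.30 (adjusted p = 0.000331). MYOD1, the master regulator of the muscle lineage, had 640 to 648 TPM in DMSO, 466 at 1 µM and 198 at 10 µM, with a log2 fold change of -1.08 ± 0.30 (adjusted p = 0.0037).

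The MYOD1 and SOX8 values depended on the reference. The other 26 libraries of the flow cell ran from 106 to 592 TPM of MYOD1, all under the DMSO libraries. Against the 7 methylation-axis compounds the difference for both doses was -0.49 and did not pass (adjusted p = 0.108), while at 10 µM it was -1.11 and passed (adjusted p = 0.00394). SOX8, a neural crest and muscle factor, had 664 to 707 TPM in DMSO, 496 at 1 µM and 414 at 10 µM. It fell by 0.60 ± 0.14 against DMSO (adjusted p = 0.000903), under the fold limit, and by 0.26 against the methylation-axis compounds, which did not pass (adjusted p = 0.0726). MYOG (-1.72, adjusted p = 8.61e-05) and MYCN (-1.42, adjusted p = 5.86e-05) passed against that reference too. The part of the flow cell in the DMSO contrasts was not tested beyond this.

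FOXF1 and PAX3 did not pass at any dose. FOXF1, a forkhead factor of mesenchyme, had 104 to 115 TPM in DMSO, 129 at 1 µM and 52.4 at 10 µM, so that the doses lay on opposite sides of DMSO, with a log2 difference of -0.41 ± 0.40 for both (adjusted p = 0.411). PAX3, whose reads can also come from the PAX3-FOXO1 fusion, had 38.6 to 43.9 TPM in DMSO, 37.5 at 1 µM and 25.3 at 10 µM, with -0.41 ± 0.26 (adjusted p = 0.184). Between the doses, MYOG fell by 1.90 ± 0.51, MYCN by 1.25 ± 0.43 and MYOD1 by 1.23 ± 0.44, all called, and both libraries of that comparison share a flow cell.

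**Figure D2:**
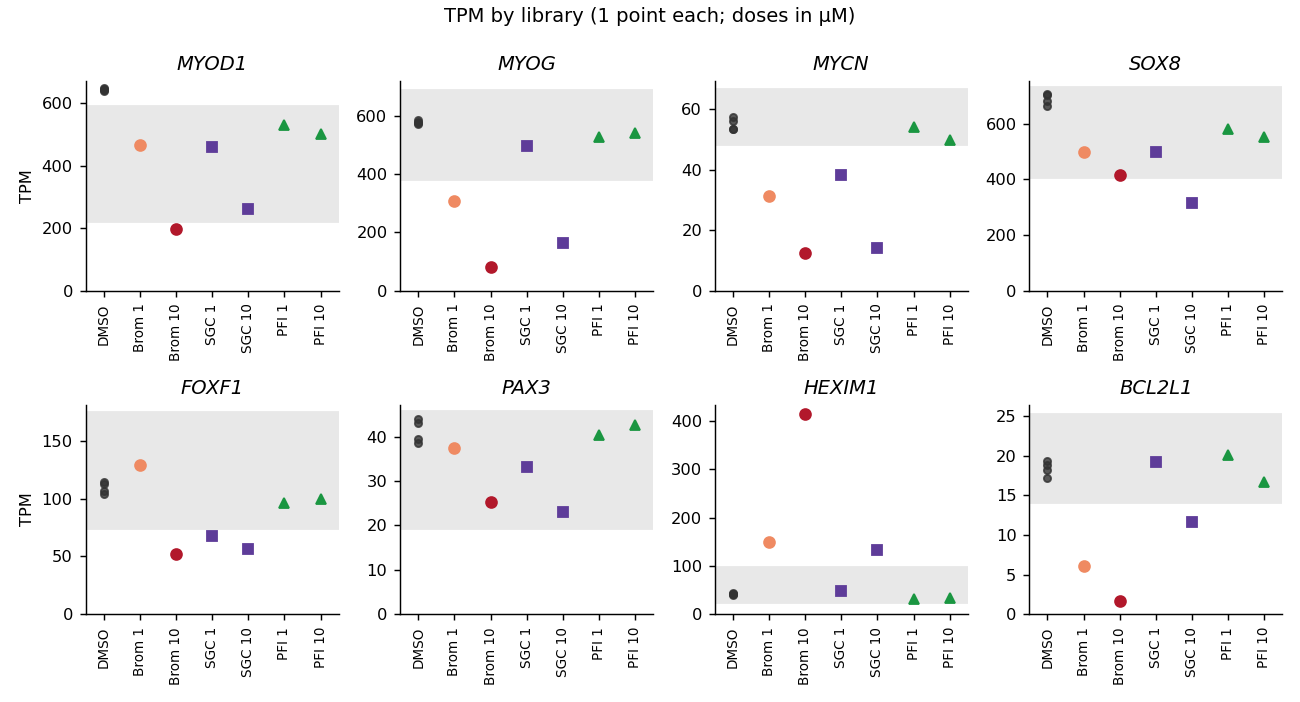
TPM (vertical axes, starting at 0) of 8 genes in each of the 4 DMSO libraries and in bromosporin (Brom), SGC-CBP30 (SGC) and PFI-3 (PFI) at 1 µM and 10 µM, with 1 point per library and the range of the 14 methylation-axis libraries of the same flow cell as a grey band. HEXIM1 reaches 414 TPM and BCL2L1 drops to 1.72 TPM at 10 µM bromosporin, both outside the band at both doses, while SOX8 stays inside it.

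Some muscle genes were called lower at 1 µM, where 3.6% of all tested genes were, and others with both doses, where 10.8% were. Of 15 tested genes of the neuromuscular junction and of myoblast fusion, 6 were called lower and 0 higher with both doses, 5 of them at 1 µM, with a median log2 fold change of -0.69. DOK7, which activates the receptor kinase MUSK at the synapse, had 72.3 and 71.8 TPM at 0.2% DMSO, 80.1 and 84.9 at 0.1%, 20.1 at 1 µM and 6.56 at 10 µM, and fell by 2.63 ± 0.35 (adjusted p = 2.73e-06). TMEM8C, the fusion protein myomaker, had 38.9 to 55.1 TPM in DMSO, 14.6 at 1 µM and 11.6 at 10 µM, and fell by 1.77 ± 0.26. CHRNG, MUSK, RAPSN and JAM2 made up the rest of the called genes.

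Of 29 tested sarcomere and contraction genes, 6 were lower and 0 higher with both doses, 5 at 1 µM. Of all tested genes, 10.8% were called lower with both doses and 3.6% at 1 µM. MYOZ2, which tethers calcineurin to the sarcomere, went from 22.5 to 29.4 TPM in DMSO to 8.15 at 1 µM and 4.87 at 10 µM. TNNI2, the fast troponin I, had 13.4 to 16.5 TPM in DMSO and almost the same level at both doses, 5.06 and 6.17. The median of this list was -0.53 at 1 µM and -0.42 at 10 µM, against medians of all genes of -0.04 and -0.27.

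Of 25 tested genes associated with PAX3-FOXO1, 7 were called lower and 0 higher with both doses, where 10.8% and 4.64% of all tested genes were. PIPOX, an oxidase of peroxisomes that marks FP-RMS, had 119 to 131 TPM in DMSO, 28.5 at 1 µM and 7.92 at 10 µM, and fell by 2.95 ± 0.39 (adjusted p = 2.52e-06). OLIG2, a neural transcription factor found in FP-RMS, went from 17.3 to 17.9 TPM to 7.43 and 4.43. MET, the hepatocyte growth factor receptor, went from 71.6 to 79.7 TPM to 41.3 and 10.8. Of 24 other myogenic and mesodermal factors, 7 were lower and 1 higher, beside the same shares of all tested genes. PITX3 had 162 to 173 TPM in DMSO, 69.8 at 1 µM and 20.2 at 10 µM, and EYA2, a transcriptional coactivator, 14.7 to 15.9 TPM, 5.62 and 2.81. The gene that was higher was ID2, an inhibitor of basic helix-loop-helix factors such as MYOD1, at 15.1 to 19 TPM in DMSO, 30.7 at 1 µM and 51.5 at 10 µM.

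Replication-dependent histone genes were mostly called higher. Of 73 such genes listed, 38 passed the filter on low values, which a gene could do through the bromosporin libraries alone, and 32 of these were called higher and 0 lower, where 4.64% of all tested genes were called higher. Their summed level was 223 to 238 TPM in DMSO, 678 at 1 µM and 1837 at 10 µM, against 152 to 573 TPM in the other libraries of the flow cell. Of the 38, 12 needed a bromosporin library to pass the filter, which favours higher values there. Of the other 26, which had at least 1 TPM in 2 DMSO libraries, 21 were called higher. At 10 µM all 26 of these lay above the 4 DMSO libraries and 25 above all other libraries of the flow cell, and at 1 µM 24 and 20 did. Over all 38, the calls covered 8 of 8 tested H2A genes, 11 of 12 H2B, 5 of 7 H3, 4 of 6 H4 and 4 of 5 H1 genes. HIST2H2BE (chr1:149856010-149858232, minus strand) had 10.9, 12.1, 12.7 and 9.19 TPM in DMSO, 51.4 at 1 µM and 127 at 10 µM, and rose by 2.75 ± 0.34 (adjusted p = 1.5e-06). HIST1H2BG had 5.52 to 9.06 TPM in DMSO, 45.5 at 1 µM and 129 at 10 µM.

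HIST1H2BE started lower, at 0.28 to 0.38 TPM in DMSO, and reached 5.16 TPM at 1 µM and 29.97 at 10 µM. HIST1H1C, the most abundant of the group in DMSO at 51.6 to 61.8 TPM, had 77.3 and 154 TPM and rose by 0.95, under the fold limit (adjusted p = 0.000222). Against the methylation-axis compounds of the flow cell 36 of the 38 were called higher, and after median-ratio scaling 34. The 38 include the 12 that needed a bromosporin library to pass the filter. Most such messenger RNAs carry no poly-A tail, and these libraries were selected for poly-A, so the values describe the transcripts that the selection kept. Many histone genes are near-identical copies, and how reads were split between them can move single genes.

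The promoters of 3 of the 4 H2B genes among the 12 largest rises, and that of HEXIM1, are shown as examples; HIST1H2BF is the H2B gene not shown. They are the 120 bases before the start of each gene in RefSeq, GRCh38.p14, written 5′ to 3′ on the gene's strand. Capitals mark the TATA box, searched as TATAAA. They also mark the CCAAT box, and the octamer known from H2B promoters, ATTTGCAT, where present on the strand shown.
HIST2H2BE, chr1:149886683-149886802, minus strand: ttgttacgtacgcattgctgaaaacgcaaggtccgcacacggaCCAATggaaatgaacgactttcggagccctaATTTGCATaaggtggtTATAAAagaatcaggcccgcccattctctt
HIST1H2BG, chr6:26216689-26216808, minus strand: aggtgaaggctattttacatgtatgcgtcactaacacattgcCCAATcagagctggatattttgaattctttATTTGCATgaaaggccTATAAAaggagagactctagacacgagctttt
HIST1H2BE, chr6:26183641-26183760, plus strand: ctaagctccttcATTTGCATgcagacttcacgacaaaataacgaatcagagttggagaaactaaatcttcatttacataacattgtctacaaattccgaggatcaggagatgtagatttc
HEXIM1, chr17:45148355-45148474, plus strand: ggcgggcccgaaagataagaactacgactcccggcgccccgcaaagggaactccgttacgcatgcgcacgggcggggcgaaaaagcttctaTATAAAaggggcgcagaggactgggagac

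HIST2H2BE and HIST1H2BG carry the CCAAT box, the octamer and the TATA box in the same order, HIST1H2BE carries the octamer alone, and HEXIM1 the TATA box alone. The octamer, chosen for display after the values were seen, was found on either strand in 8 of 11 promoter windows of tested H2B genes, in 7 of 24 of other histone genes and in 1.29% of the windows of all tested genes. These windows hold 300 bases, of which 250 lie before the start, and were found for 10673 of the 13975 tested genes. TATAAA stood in 60% of the windows of tested histone genes (21 of 35), in 11.2% of those of the other genes called higher, in 7.71% of those of genes called lower and in 5.72% of all. CCAAT stood in 46.6% of the windows of the other genes called higher, 30.2% of those of genes called lower and 37.1% of all. CACGTG, an E-box, stood in 7.96%, 12.5% and 10.1%, and CAGCTG, the E-box that MYOD1 and MYOG prefer, in 18%, 17.4% and 17.2%. GGGCGG stood in 73.8%, 60.5% and 69.9%. Both strands were searched, and a match is a description of the letters only.

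**Figure D3:**
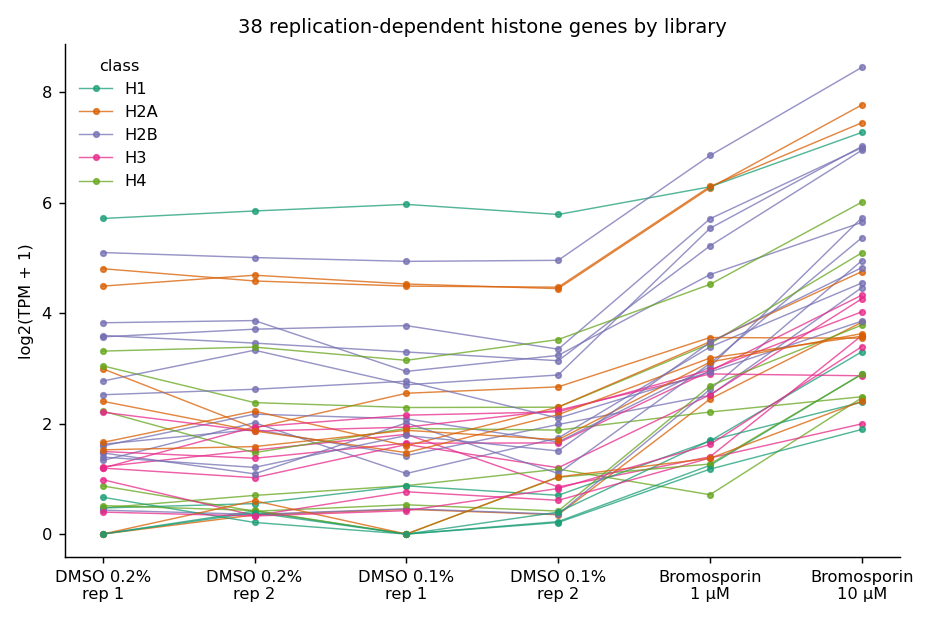
Level on log2(TPM + 1) (vertical axis) of 38 replication-dependent histone genes in each of the 4 DMSO and 2 bromosporin libraries (horizontal axis), 1 line per gene, coloured by histone class. Of the 26 genes with at least 1 TPM in 2 DMSO libraries, all 26 lie above the 4 DMSO values at 10 µM, and genes with few reads scatter more between the DMSO libraries.

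Of 18 tested CDK inhibitor and p53 target genes, 8 were called higher and 0 lower with both doses, where 4.64% of all tested genes were higher. The 8 were CDKN1A, CDKN2B, CDKN2D, GADD45B, SESN2, SESN3, PMAIP1 and TP53INP1. The median log2 fold change of the list was 0.90 for both doses. At 1 µM 2 genes were called higher, where 1.3% of all tested genes were. SESN3, a stress-induced regulator of growth signalling, had 18.5 to 21.2 TPM in DMSO, 55.4 at 1 µM and 122 at 10 µM, above the other 26 libraries at the high dose (15.1 to 73.4 TPM). CDKN2B, an inhibitor of CDK4 and CDK6, had 1.11 to 1.38 TPM in DMSO, 4.44 at 1 µM and 10.2 at 10 µM.

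Among the 27 genes of G1/S and DNA replication, 4 were called lower, namely CCND1, CDK6, E2F2 and MCM5, and 0 higher, near the 10.8% of all tested genes. MCM5, a subunit of the replicative helicase, had 182 to 195 TPM in DMSO, 106 at 1 µM and 32.6 at 10 µM, and fell by 1.66 ± 0.23 (adjusted p = 4.04e-06). CCND1, cyclin D1, had 43.1 to 53.4 TPM in DMSO and the same level at both doses, 11 and 11.3 TPM. The median of this list at 10 µM was -0.28, near that of all genes, and -0.05 after scaling. Of 20 G2/M genes, FOXM1 alone was called with both doses, at 140 to 145 TPM in DMSO, 114 at 1 µM and 32.0 at 10 µM.

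In the MYC network, MXD1, an antagonist of MYC that shares its partner MAX, was called higher (2.33 to 3.39 TPM in DMSO, 11.4 at 1 µM and 36.9 at 10 µM), and 1 other library of the flow cell reached 36.2 TPM. Of 23 tested ribosome biogenesis genes, 3 were called lower, RRS1, PES1 and UTP20, near the 10.8% of all tested genes, and 1 after scaling and 2 against the methylation-axis compounds. PES1, which matures the large ribosomal subunit, had 95.8 to 102 TPM in DMSO, 67.9 at 1 µM and 32.8 at 10 µM, and was under the fold limit after scaling (-0.947) and against the methylation-axis compounds (-0.955), though it passed by p in both. The 80 tested genes of cytosolic ribosomal proteins had a median of 0.33 at 10 µM. Of them 2 were called lower and 1 higher at that dose, where 20.6% and 8.74% of all tested genes were. After scaling the median at 10 µM was 0.57, with 2 lower and 2 higher.

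The BCL2 family moved in both directions. BCL2L1, which encodes the survival protein BCL-XL, had 19.3, 17.2, 18.8 and 18.1 TPM in DMSO, 6.13 at 1 µM and 1.72 at 10 µM, and fell by 2.13 ± 0.22 (adjusted p = 1.49e-07). Both bromosporin values lay below all 26 other libraries of the flow cell, which ran from 8.42 to 25.2 TPM. The pro-apoptotic genes BCL2L11, which encodes BIM, and PMAIP1, which encodes NOXA, rose. BCL2L11 had 12.2 to 13 TPM in DMSO, 26.9 at 1 µM and 61.1 at 10 µM, and PMAIP1 33.3 to 36.4, 67.3 and 155 TPM. BOK was called lower at 11.9 TPM at 10 µM, within the range of the other libraries (4.96 to 36.5 TPM), and did not pass against the methylation-axis compounds (adjusted p = 0.0609). In all, 2 of 13 tested members were lower and 2 higher, where 10.8% and 4.64% of all tested genes were. The median of the list was -0.74, and after median-ratio scaling 1 member was lower and 2 were higher.

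HOX genes are the positional regulators of the body axis. Of 39 listed, 21 were tested, and 13 were called lower and 0 higher with both doses, where 10.8% of all tested genes were called lower. The median log2 fold change was -1.11 for both doses, -0.65 at 1 µM and -1.57 at 10 µM, and -1.36 at 10 µM after scaling. No HOX gene was called at 1 µM, where 3.6% of all tested genes were called lower. HOXC10 had 12.3, 11.9, 11.9 and 11.6 TPM in DMSO, 5.6 at 1 µM and 1.62 at 10 µM, both below the other libraries of the flow cell (6.70 to 15.6 TPM). HOXA7 had 17.8 to 20.7 TPM in DMSO, 10.4 at 1 µM and 2.26 at 10 µM, and fell by 1.76 ± 0.26 (adjusted p = 6.6e-06). Against the methylation-axis compounds 9 of the 21 were called lower, and after scaling 11.

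**Figure D4:**
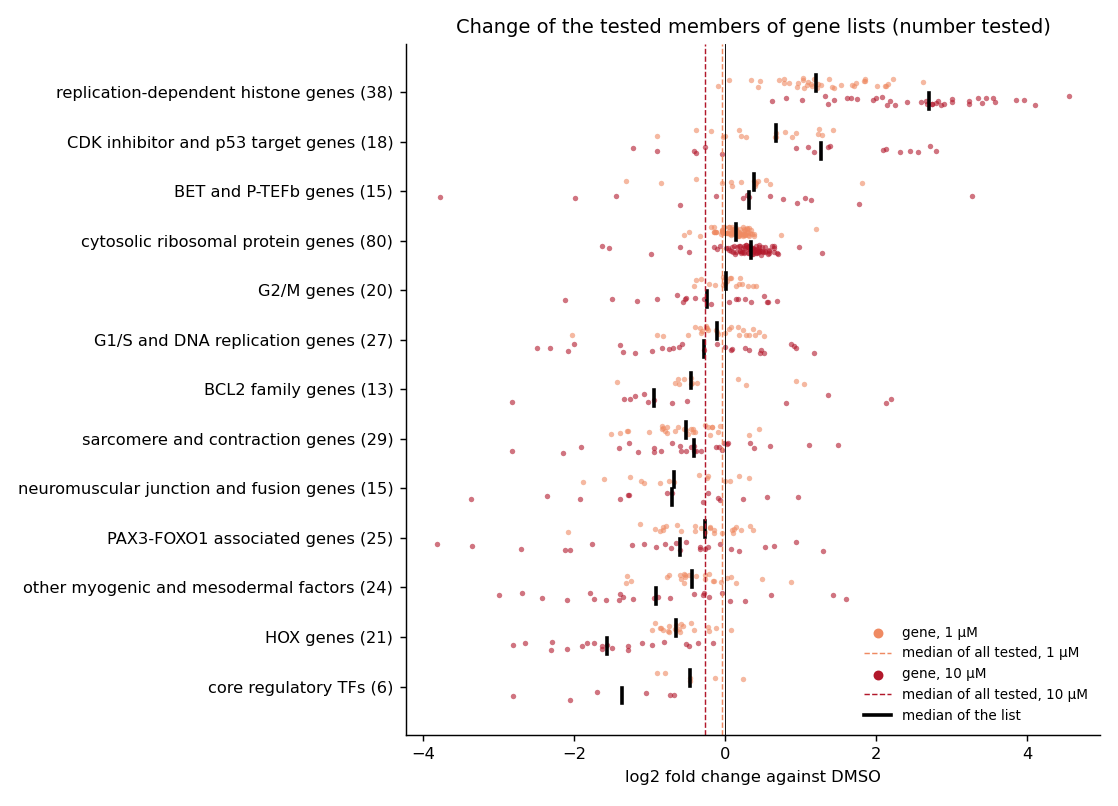
Log2 fold change against DMSO (horizontal axis) of the tested members of 13 gene lists, 1 point per gene, at 1 µM (light) and 10 µM (dark), with the median of each list as a black bar and the medians of all tested genes as dashed lines. The histone genes lie furthest right, with medians of 1.20 and 2.70, and the HOX genes and the CR TFs furthest left at 10 µM, with medians of -1.57 and -1.37.

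The largest falls with both doses included genes of varied function, and several of these were also low under SGC-CBP30 at 10 µM, as given below. FGF8, a growth factor of early embryos (chr10:103529887-103540126, minus strand), had 168 TPM in both libraries at 0.2% DMSO, 192 and 203 at 0.1%, 36.6 at 1 µM and 5.50 at 10 µM, and fell by 3.55 ± 0.56 (adjusted p = 1.38e-05). SSTR5, a somatostatin receptor, went from 30.5 to 37.7 TPM in DMSO to 3.45 and 0.95. DBX1, a homeobox factor of the spinal cord, stayed at 82.1 TPM at 1 µM after 180 to 188 in DMSO and dropped to 3.31 at 10 µM. TMCO4 had 95.9 to 113 TPM in DMSO, 14.2 at 1 µM and 7.28 at 10 µM, and RXRG, a retinoid receptor, 154 to 165 TPM, 28.6 and 12.6. NNMT, which methylates nicotinamide, went from 23.5 to 27.1 TPM to 4.58 and 1.12.

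IL1RAPL2 had 17.3 to 20.2 TPM in DMSO, 3.67 at 1 µM and 0.64 at 10 µM, CASS4 12.9 to 17.7, 2.35 and 0.44, and AFAP1L2 10.4 to 13.6, 0.96 and 0.73. The non-coding LOC105375504 on chr7 went from 47.3 to 57.7 TPM in DMSO to 23.6 and 0.73. LOC102723330 lies on chr11, 22.62 kb before MYOD1, and had 9.67 to 12.1 TPM in DMSO, 0.90 at 1 µM and 0.46 at 10 µM.

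The largest rises started from low levels. The rule for these genes asked for a mean of at least 5 TPM under bromosporin. HIST1H2BE, HIST2H2AB, PLIN5, SGK2, FCGR1A, L3MBTL1 and FAM46C needed a bromosporin library to pass the filter, which favours higher values there. HIST1H2BE, HIST1H2BG, HIST2H2AB, HIST1H2BF and HIST2H2BE were 5 of the 12. NPTXR, a receptor of neuronal pentraxins, had 1.33 to 1.66 TPM in DMSO, 9.30 at 1 µM and 40.6 at 10 µM, and rose by 3.01 ± 0.35 (adjusted p = 7.79e-07). SGK2, a kinase of ion transport, had 0.06 to 0.29 TPM, 3.06 and 22.8, and L3MBTL1, a chromatin reader of methylated histones that lies 17.1 kb from it on chr20, had 0.49 to 0.58, 3.63 and 21.3. DHRS2, a dehydrogenase, had 5.76 to 7.45 TPM, 41.8 and 78.0, and FAM46C, a poly-A polymerase, 0.69 to 1.12, 6.58 and 24.0. PLIN5, which coats lipid droplets, reached 26.4 TPM at 10 µM, and another library of the flow cell reached 21.7. FCGR1A reached 17.2 TPM, but its row overlaps that of HIST2H2BF (chr1:149754245-149783928), so the reads of both cannot be told apart here.

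POLR2A, JUND, CTGF, FGFR3 and FGFR1 were called higher with both doses. POLR2A, the largest subunit of RNA polymerase II, had 164 to 191 TPM in DMSO, 319 at 1 µM and 618 at 10 µM, above all 26 other libraries at both doses (111 to 275 TPM), and rose by 1.34 ± 0.19 (adjusted p = 5.44e-06). JUND, an AP-1 factor, had 45.8 to 50.4 TPM, 95.2 and 222, and passed neither at 1 µM (adjusted p = 0.0954) nor between the doses (adjusted p = 0.0833). CTGF, a target of YAP, had 17.8 to 22.4 TPM, 43.7 and 156, and did not pass at 1 µM (adjusted p = 0.0797). FGFR3 had 11.8 to 13.4 TPM, 30.8 and 102, and FGFR1 79.3 to 82.6, 129 and 226.

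From 1 µM to 10 µM, 1293 genes were called lower and 316 higher (9.25% and 2.26% of those tested), within 1 flow cell and with no DMSO library. After median-ratio scaling the split was 744 and 637, so that the excess of falls between the doses rested on the scale of the values. Of the 503 genes called lower at 1 µM, 101 were called lower again from 1 µM to 10 µM and 4 higher, and of the 182 called higher, 73 were called higher again and 4 lower. ATOH8, a basic helix-loop-helix factor, had 136 to 142 TPM in DMSO, 66.8 at 1 µM and 6.13 at 10 µM, and the step was -3.25 ± 0.65 (adjusted p = 0.000515). ZEB2, a repressor of epithelial genes, went from 35.9 to 4.09 TPM, and the muscle gene C10orf71 from 12.4 to 1.20. Upward steps were led by SNHG25, C2orf82, PYY2, HIST3H2BB and BOLA1. HIST3H2BB went from 7.17 to 52.1 TPM, whereas SNHG25 is listed at 0 TPM at 1 µM and at 10.3 at 10 µM, within its DMSO range of 5.49 to 11, so its step rests on the 1 µM library.

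Of 12889 genes with at least 1 TPM in all 4 DMSO libraries, 644 were lost (under 1 TPM) at 10 µM and 364 at 1 µM, and 277 at both. Of 12938 genes under 1 TPM in all 4, 578 were gained at 10 µM, 248 at 1 µM and 166 at both. The other 26 libraries of the flow cell lost 66 to 631 genes with a median of 148, and gained 114 to 742 with a median of 228, so the gains at 1 µM were near that median. With 2 TPM required on one side and under 0.5 on the other, 115 genes were lost and 111 gained at 10 µM, and 40 and 35 at 1 µM, where the other 26 libraries lost 5 to 118 and gained 9 to 108. No test was run on these counts. The genes lost at both doses with the highest DMSO level were AFAP1L2, LOC102723330, VSTM2A, MCHR1 and PIK3AP1. AFAP1L2, LOC102723330 and VSTM2A were also under 1 TPM with SGC-CBP30 at 10 µM (0.56, 0.76 and 0.81 TPM). With SGC-CBP30 at 1 µM they had 6.44, 5.89 and 2.77 TPM. VSTM2A had 6.36 to 8.02 TPM in DMSO and 0.88 and 0.89 at the doses, MCHR1, a hypothalamic receptor, 5.99 to 7.22, 0.72 and 0.10, and PIK3AP1, an adaptor of PI3-kinase, 5.4 to 6.42, 0.98 and 0.63. Genes gained at both doses with the highest level included PLIN5, SGK2, FCGR1A and L3MBTL1.

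**Figure D5:**
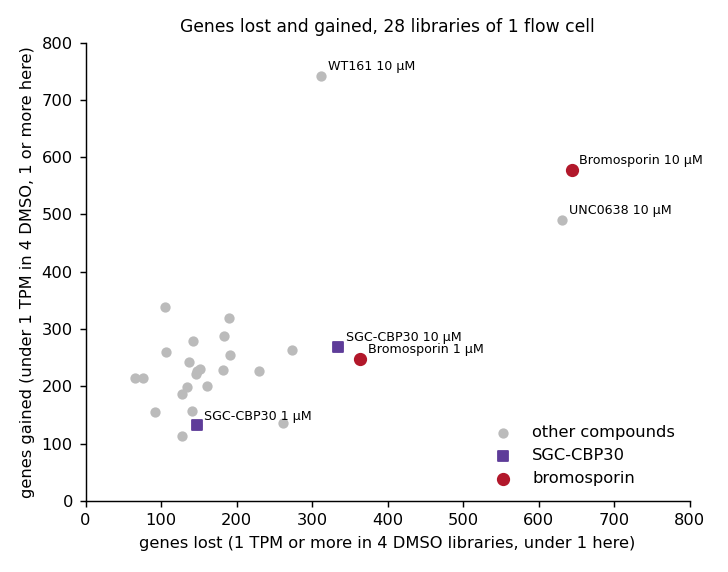
Genes lost (horizontal axis) and gained (vertical axis) relative to the 4 DMSO libraries at a limit of 1 TPM, 1 point for each of the 28 libraries of the flow cell. Bromosporin at 10 µM lies at 644 lost and 578 gained, the most lost of the 28, and bromosporin at 1 µM at 364 and 248.

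SGC-CBP30, labelled as aimed at the CREBBP/EP300 bromodomain, had the same doses, time and flow cell, and a direct contrast with it needs no DMSO library. With both doses, 859 genes were lower under bromosporin than under SGC-CBP30 and 298 higher (6.15% and 2.13% of those tested), and after median-ratio scaling 515 and 459. At 10 µM alone the counts were 2016 and 476, and at 1 µM alone 189 and 51. Of 38 tested histone genes, 28 were higher under bromosporin and 0 lower. Of these 38, 12 needed a bromosporin library to pass the filter, which favours higher values under bromosporin. HEXIM1 reached 133 TPM under SGC-CBP30 at 10 µM, less than under bromosporin at 1 µM (150 TPM), and the difference was 1.63 ± 0.41 (adjusted p = 0.00418).

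Several genes called lower under bromosporin lay closer to their DMSO level under SGC-CBP30. ZMYND8 had 34.7 and 21.7 TPM under SGC-CBP30 at 1 µM and 10 µM, a difference of -2.56 ± 0.43 (adjusted p = 0.000271). BNIP1, a membrane fusion protein, had 30.2 and 23.6 TPM there and 9.53 and 2.37 under bromosporin (-2.22 ± 0.30). TOMM40L had 14.9 and 14.8 against 7.28 and 0.48, and the mitochondrial ribosomal gene MRPL27 157 and 126 against 76.9 and 12.4. RAD51D, a homologous recombination gene, had 12.5 and 7.06 against 3.13 and 0.46. BCL2L1 had 19.2 and 11.6 TPM under SGC-CBP30, and the difference was -1.86 ± 0.25 (adjusted p = 4.4e-05). Of 21 HOX genes, 8 were lower under bromosporin than under SGC-CBP30 and 0 higher, where 6.15% of all tested genes were lower. SELPLG, PLIN5, SGK2, HIST1H2BE and HIST1H2BG led the genes that were higher. All of these but HIST1H2BG needed a bromosporin library to pass the filter, which favours higher values there. SELPLG, a selectin ligand, had 3.60 and 21.2 TPM under bromosporin and 0.47 and 1.13 under SGC-CBP30.

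The CR TFs were not called different between these compounds. At 10 µM, MYOG was at 81.7 TPM under bromosporin and 163 under SGC-CBP30, MYCN at 12.5 and 14, and MYOD1 at 198 and 263. With both doses the difference was -0.84 ± 0.44 for MYOG (adjusted p = 0.141), -0.22 ± 0.35 for MYCN (adjusted p = 0.664), -0.19 ± 0.34 for MYOD1 (adjusted p = 0.703) and 0.20 ± 0.16 for SOX8 (adjusted p = 0.371). FOXF1 (0.41 ± 0.47) and PAX3 (0.16 ± 0.29) did not pass either. The 95% interval of the difference ran from -1.74 to 0.05 for MYOG, -0.93 to 0.49 for MYCN, -0.90 to 0.51 for MYOD1, -0.14 to 0.53 for SOX8, -0.55 to 1.36 for FOXF1 and -0.45 to 0.76 for PAX3. Genes low under both compounds at 10 µM included FGF8 (5.50 TPM under bromosporin and 9.21 under SGC-CBP30), TMEM8C (11.6 and 8.04) and CCND1 (11.3 and 5.93). SSTR5 (0.95 and 1.59), TMCO4 (7.28 and 11.8), RXRG (12.6 and 16.8) and CASS4 (0.44 and 0.53) were low under both as well. Of the 12 largest falls, TMCO4, NNMT, PIPOX and LOC102723330 were called lower under bromosporin than under SGC-CBP30 with both doses, and the others were not called.

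PFI-3, labelled as aimed at SMARCA4, gave a contrast close in size to that with DMSO. Bromosporin was lower in 1559 genes and higher in 671 (11.2% and 4.8% of those tested), or 1254 and 866 after scaling. At matched doses the counts were 2878 and 1139 at 10 µM and 296 and 76 at 1 µM. The log2 difference from PFI-3 was -1.75 ± 0.44 for MYOG (adjusted p = 0.00227) and -1.34 ± 0.35 for MYCN (adjusted p = 0.00291), while the MYOD1 difference of -0.76 ± 0.34 did not pass (adjusted p = 0.0718). At 10 µM alone it was -1.34 and passed (adjusted p = 0.015). FGF8, SSTR5 and LOC105375504 led the falls, and FGF8 had 180 and 161 TPM under PFI-3. HIST1H2BE, HIST1H2BF and NPTXR led the rises, and HIST1H2BE needed a bromosporin library to pass the filter. COL1A1, called higher against DMSO at 191 and 218 TPM, had 199 and 201 TPM under PFI-3 against 89.7 to 102 in DMSO, and the difference from PFI-3 was 0.03 ± 0.18. These 2 pairs of compounds were the only ones compared directly, each adjusted over its own genes.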

How the data were processed

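Poly-A RNA of the 44 screen samples was sequenced. The study's methods give alignment to hg19 with STAR 2.5.3a and gene values from RSEM 1.3.0. The sample labels name STAR and edgeR, without versions, and do not name RSEM. Which tool made the deposited values was not tested. The deposited values are TPM, in which the authors divided reads by gene length and scaled to the same total in every library. They were whole reads in 23037 of 23037 genes with a value above 0 (tolerance 0.01 read), so depth was recovered from them.

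The 27043 genes were filtered to at least 1 TPM in at least 2 of the 6 libraries. Values of log2(TPM + 1) from all 44 samples were fitted with limma 3.58.1 (R 4.3.3; moderated test with a trend, residual degrees of freedom 23, or 22 with doses apart), and p-values were adjusted by Benjamini-Hochberg over 13975 genes. The fit was also run on simulated data, and no result given here rests on that run. A DMSO mean ± SD has n = 2 concentrations, because the interaction of concentration and replicate had 1.018 times the variance of counting noise; the fit itself took the 4 DMSO libraries as separate samples, and averaging them is an alternative. A fold change on this scale understates the change of low genes. Tables and figures used Python 3.11.15, pandas 2.3.3 and matplotlib 3.10.9.

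The genes and lists were chosen with earlier results of these data known. Named genes were the CR TFs, the BET and P-TEFb genes, the 12 largest called falls and rises of both doses beyond the DMSO range at each dose, with a mean of at least 5 TPM, the 5 largest in each direction between the doses and against SGC-CBP30 and the 3 largest against PFI-3, up to 2 called members in each direction of every other list by p, and up to 5 lost and 5 gained genes of highest level. Small RNAs were left out, and some genes are not reported here. HIST1H1C and HIST2H2BF fall outside this rule and were chosen after their values were seen. Alternatives were the pseudocount, the filter, median-ratio scaling, the reference samples, the samples in the fit, the replicate block and each sample left out. Promoters are from RefSeq, GRCh38.p14, and all other coordinates are hg19.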

Additional observations from a re-analysis of the deposited data

Results flagged for a closer look

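Of 110 genes examined for a DMSO library that stood apart from the other 3, 4 had one, and chance alone marks about 1 in 20 such groups. NPTXR was at 1.33 TPM in replicate 2 at 0.1% DMSO, against 1.65 to 1.66 in the others. JUND was at 50.4 TPM in replicate 1 at 0.1% DMSO, against 45.8 to 46.0. GCLC, an enzyme of glutathione synthesis, was at 3.74 TPM in replicate 2 at 0.2% DMSO, against 4.03 to 4.07. DCN, a proteoglycan of connective tissue, was at 2.36 TPM in replicate 1 at 0.1% DMSO, against 2.02 to 2.06. In NPTXR and JUND these gaps were small beside the difference from bromosporin.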

How the results depend on the processing

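Without the fold limit the called genes numbered 7291 for both doses, 8164 at 10 µM, 2121 at 1 µM, 3650 between the doses, 4281 against SGC-CBP30 and 6298 against PFI-3. Single doses gave 2492 (10 µM) and 240 (1 µM) against SGC-CBP30, and 4017 and 372 against PFI-3. Limma's voom on the recovered reads, chosen after seeing the data, called 1960 against SGC-CBP30, and raised the higher calls to 1013 (from 648) with both doses, 305 (from 182) at 1 µM and 493 (from 298) against SGC-CBP30. With the DMSO replicates of each concentration averaged, the higher calls at 1 µM were 117. With 2 TPM on one side and under 0.5 on the other, 115, 40 and 20 genes were lost at 10 µM, 1 µM and both, and 111, 35 and 12 gained. Leaving out 1 library gave 685 to 4105 genes for both doses (685 without the 10 µM library, 4105 without the 1 µM library), 4066 to 4123 at 10 µM and 593 to 667 at 1 µM. The DMSO replicate numbers follow the flow cell, and the labels do not say that they pair samples; with the replicate block the counts were 2149 for both doses, 4102 at 10 µM and 661 at 1 µM. Of the alternative values for single named genes, 2945 kept direction and side of the adjusted p threshold. Of the rest, 108 no longer passed that threshold, 64 newly passed it and 16 changed sign. The fold limit played no part in this sorting, so these are not counts of calls lost or gained. MYOD1 after median-ratio scaling (-0.968, both doses) was under the fold limit but counts as kept. None of the 16 that changed sign passed the test after the change, and the cause was not tested. These were, for CCNT2, -0.081 (methylation-axis reference), 0.376 and -0.12 (1 µM and 10 µM library alone), 0.11 (scaling, 10 µM), 0.15 (scaling, SGC-CBP30) and 0.36 (SGC-CBP30, 1 µM). FOXF1 was 0.24 and -1.05 (1 µM and 10 µM library alone) and -0.10 (SGC-CBP30, 10 µM), C2orf82 -0.56 and 2.55, and SNHG25 -3.00 and 0.49 (1 µM and 10 µM library alone). Against the methylation-axis compounds at 1 µM, MYOD1 was 0.13, PAX3 0.006 and CCNK -0.019, and against all 13 compounds MYOD1 was 0.19 and PAX3 0.13. Against SGC-CBP30 at 1 µM, MYOD1 was 0.022 and SOX8 -0.008. Each dose rests on 1 library, and the 1 µM library was the shallowest of the 6.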

Other observations

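The counts of other lists, with both doses, stand beside 10.8% lower and 4.64% higher among all tested genes. NFKB1, a subunit of NF-kB, had 87.4 to 93 TPM in DMSO, 31.8 at 1 µM and 8.03 at 10 µM, and fell by 2.41 ± 0.36 (SE, limma adjusted p = 7.58e-06). With CCL2, RELB and TNFAIP3 it made 4 of 8 tested inflammatory and NF-kB genes called lower with both doses, and NFKBIE, an inhibitor of NF-kB, was called higher. Of 17 tested receptor tyrosine kinase genes, ERBB2, ERBB3, PDGFRA and MET were lower and FGFR1 and FGFR3 higher. PDGFRA went from 6.51 to 7.41 TPM in DMSO to 3.3 and 0.69 at the low and the high dose. Of 12 ERK feedback genes, SPRY1, SPRY4, ETV4 and CCND1 were lower and 0 higher, with a median log2 fold change of -0.75 against -0.16 for all genes. In the Notch list of 14 tested genes, DLL4, HES4 and NRARP were higher and 0 lower. NRARP, a feedback inhibitor of Notch, went from 0.23 to 0.76 TPM to 2.47 and 15.5. DLL4 had 0.04 to 0.25 TPM in DMSO. Both NRARP and DLL4 passed the filter only through bromosporin, which favours higher values there. In the WNT list of 11, LEF1 and DKK1 were lower and 0 higher.

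TRIB3, a pseudokinase induced by ATF4, had 33.4 to 38 TPM in DMSO, 10.6 at 1 µM and 2.65 at 10 µM, whereas SESN2 of the same list of 19 rose to 60.5 TPM. Of 22 histone acetyltransferase and deacetylase genes, KAT5, CREBBP, HDAC7 and HDAC8 were lower and NCOA3 higher. Of 14 interferon genes, IFI44 was lower and IRF7 higher, and of 14 Hippo targets ANKRD1 was lower and CTGF higher. Of 17 immediate early genes, FOS and JUND were higher, and FOS, at 0.68 to 1.03 TPM in DMSO, needed a bromosporin library to pass the filter. The hypoxia, oxidative stress, imprinted and extracellular matrix lists each had 1 gene higher and 0 lower, namely NDRG1, GCLC, PLAGL1 and COL1A1, and RPL39L was the ribosomal protein gene called lower. In the cholesterol synthesis and heat shock lists no gene passed the fold limit with both doses; FADS1 (-0.74 ± 0.20) and HSPB1 (-0.71 ± 0.10) had the smallest p. Against the methylation-axis compounds of the flow cell 5 of 22 cholesterol genes were lower, so that list depended on the reference.

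A single exon was found in 9.58% of the genes called higher other than histone genes, in 2.75% of those called lower and in 5.41% of all tested. The median DMSO level was 5.04 TPM for genes called higher, 22.3 for genes called lower and 23.9 for all tested. These shares were not tested.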
